A study of Homo sapiens with 6 samples.

Results

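FMR1, the autosomal fragile X related genes FXR1 and FXR2, and CYFIP1 and CYFIP2 were examined in U2OS cells given siRNA against the RNA demethylase ALKBH5. The 5 genes were found by symbol among the 23228 gene symbols of the deposited count table, and all 5 were among the 14504 genes with enough reads to test. U2OS is an established osteosarcoma line. Cells were transfected with a lipid reagent and harvested 48 hours later. There were 3 libraries of cells given scrambled siRNA and 3 of cells given ALKBH5 siRNA. The line carries no other stated modification, both groups went through transfection, and the siRNA sequences were not used here. The members were selected on the CPM of FMR1, which was already known to be much lower in the knockdown libraries. Their differences between the groups are therefore given as a description, without p-values.

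FMR1 encodes FMRP, the RNA-binding protein whose loss causes fragile X syndrome. FMRP travels with messenger RNA on polyribosomes, mostly restrains translation, and is one of the proteins known to prefer RNA that carries N6-methyladenosine (m6A), the mark that ALKBH5 removes. FXR1 and FXR2 are its paralogues, with the same kind of KH and RGG RNA-binding regions. CYFIP1 links FMRP to the cap-binding protein eIF4E, and CYFIP2 binds FMRP and both FXR proteins. Either CYFIP protein also serves as a subunit of the WAVE complex, which receives signals from the GTPase RAC1 and switches on the actin-nucleating Arp2/3 complex.

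The RefSeq promoter windows of the 3 fragile X genes are shown because these genes were all lower in the knockdown libraries. Each is the 250 bases before the annotated start on GRCh38.p14, printed 5′ to 3′ on the gene's strand. The windows are chrX:147911669-147911918 on the plus strand for FMR1, chr3:180912420-180912669 on the plus strand for FXR1 and chr17:7614898-7615147 on the minus strand for FXR2. Capitals mark matches on either strand to GCGCNNGCGC, the core of the site of NRF1, to the E-box CACGTG and to the GC box GGGCGG, none of which overlap here. RefSeq lists 2 starts of FXR1 that lie 1 base apart, and the first is shown.
FMR1: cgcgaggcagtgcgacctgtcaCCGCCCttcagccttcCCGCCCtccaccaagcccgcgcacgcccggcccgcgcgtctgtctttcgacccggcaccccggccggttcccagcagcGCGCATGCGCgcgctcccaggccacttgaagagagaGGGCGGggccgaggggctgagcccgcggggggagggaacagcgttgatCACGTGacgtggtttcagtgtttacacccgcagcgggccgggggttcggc
FXR1: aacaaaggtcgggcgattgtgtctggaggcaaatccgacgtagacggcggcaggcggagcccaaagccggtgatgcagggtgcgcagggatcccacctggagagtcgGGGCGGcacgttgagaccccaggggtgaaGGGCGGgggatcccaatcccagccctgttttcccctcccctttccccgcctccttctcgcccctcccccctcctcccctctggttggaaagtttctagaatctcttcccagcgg
FXR2: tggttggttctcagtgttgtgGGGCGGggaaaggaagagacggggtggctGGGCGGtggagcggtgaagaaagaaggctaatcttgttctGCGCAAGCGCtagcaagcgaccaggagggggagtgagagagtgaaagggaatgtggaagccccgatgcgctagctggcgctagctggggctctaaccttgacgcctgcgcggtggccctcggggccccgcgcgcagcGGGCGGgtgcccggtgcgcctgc

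The FMR1 window held 1 NRF1 match, starting at position −134, 1 E-box at −50 and 3 GC boxes. FXR2 held 1 NRF1 match at −160 and 3 GC boxes, and FXR1 held 2 GC boxes and neither of the other motifs. Among 35116 RefSeq windows of the same length, 7.16% held the NRF1 core, 6.34% the E-box and 42.6% the GC box. The GC content was 72.4% for FMR1, 64.4% for FXR1 and 66.0% for FXR2, against a median of 58.0% over all windows. The CYFIP genes have several starts, and their windows are not printed. At its first listed start CYFIP1, also lower in the knockdown libraries, had 55.6% GC and none of the 3 motifs. CYFIP2, which was higher, had 76.4% GC and 5 GC boxes at its first. Other starts differed: CYFIP1 held 2 GC boxes at listed start 3 and 1 E-box at start 4, and CYFIP2 held none of the motifs at start 2. Over all listed starts CYFIP1 had 49.6% to 78.4% GC and CYFIP2 52.4% to 76.4%. High GC content was thus not limited to the lower members. A motif match describes letters in these windows and does not show a bound factor.

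Scrambled libraries held 18817181 to 23410007 reads in genes and knockdown libraries 19748583 to 19919797. Levels are given as CPM, the reads of a gene per 1000000 reads in genes after TMM scaling. ALKBH5 was 8.35-fold lower after its knockdown, with 138 to 148 CPM in scrambled and 15.7 to 19.4 CPM in knockdown libraries. Of the uniquely placed reads, 15.0% to 15.5% met no counted feature in scrambled libraries and 17.3% to 18.6% in knockdown libraries. Without the counting settings, reads outside genes cannot be told from reads in uncounted parts or on the other strand of genes. The part of these reads in the results was not tested. Of 10 markers of the osteoblast lineage, 6 were high enough to test. COL1A1 averaged 1526 and 2017 CPM and SPARC 2030 and 1428 CPM in the scrambled and knockdown groups, while SP7, BGLAP and TWIST1 were near 0 and IBSP had 0 reads. COL1A1 and RUNX2 rose, SPARC and ALPL fell, and SPP1 and COL1A2 (4.44 and 1.12 CPM) did not pass. The summed markers of leukocytes were 27.1 to 29.0 CPM with scrambled siRNA and 98.1 to 201 CPM with ALKBH5 siRNA, mostly from LCP1, with CD53, CD48 and NCKAP1L near 0 in both groups. Of the 4 tested leukocyte markers, LCP1 and LAPTM5 rose and PTPRC and CORO1A fell. The summed neuron markers were 159 to 172 CPM and 88.0 to 109 CPM, led by TUBB3. Of the 7 tested neuron markers, TUBB3 and MAP2 fell, SYN1, SYT1 and STMN2 rose, and 2 did not pass. Summed epithelial markers were 538 to 635 and 626 to 649 CPM, and endothelial markers 13.4 to 15.2 and 10.2 to 10.7 CPM, with PECAM1 near 0. KRT18, CLDN4 and CDH1 rose, KRT8 and CLDN7 fell, and 2 tested epithelial markers did not pass. VWF fell from 5.62 to 0.857 CPM on average, KDR from 1.05 to 0.0692 CPM, and 3 tested endothelial markers did not pass. The part of these marker genes in the results was not tested.

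FMR1 messenger RNA was 3.60-fold lower in the knockdown libraries. The scrambled replicates 1, 2 and 3 held 68.5, 69.0 and 63.4 CPM, or 1646, 1436 and 1212 reads. The knockdown replicates held 20.5, 19.2 and 16.0 CPM, or 401, 365 and 313 reads. Every knockdown library lay far below the lowest scrambled library, and each value rests on more than 300 reads. The log2 fold change was −1.85 (SE 0.11), and 360 of the tested genes had a lower value, which puts FMR1 in the lowest 2.48% of the distribution. In these bulk samples, fewer cells that express a gene and less RNA per cell cannot be told apart.

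FXR1, the paralogue with the highest read counts, was 1.74-fold lower. Its scrambled libraries held 348, 350 and 327 CPM and its knockdown libraries 209, 204 and 175 CPM (log2 change −0.80, SE 0.08). The groups were far apart, and knockdown replicate 3 was the lowest for FXR1 as it was for FMR1. FXR2 differed less, at 57.5, 57.3 and 64.1 CPM with scrambled siRNA and 41.7, 46.0 and 47.8 CPM with ALKBH5 siRNA (1.32-fold lower, log2 fold change −0.40, SE 0.09). In FXR2 knockdown replicate 3 was the highest of its group, the opposite of its place in FMR1 and FXR1.

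The CYFIP genes differed little, and in opposite directions. CYFIP1 held 224, 218 and 217 CPM with scrambled siRNA and 188, 194 and 194 CPM with ALKBH5 siRNA (1.14-fold lower, log2 fold change −0.19, SE 0.07). CYFIP2 held 88.2, 91.6 and 90.1 CPM with scrambled siRNA and 92.7, 113 and 114 CPM with ALKBH5 siRNA (1.18-fold higher, log2 fold change 0.24, SE 0.09). Knockdown replicate 1 of CYFIP2 lay only just above the highest scrambled library. In each of the 5 members the groups were free of overlap in CPM, 4 of them lower in the knockdown libraries. The same was true of 67.4% of all tested genes, 33.9% being lower.

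**Figure D1:**
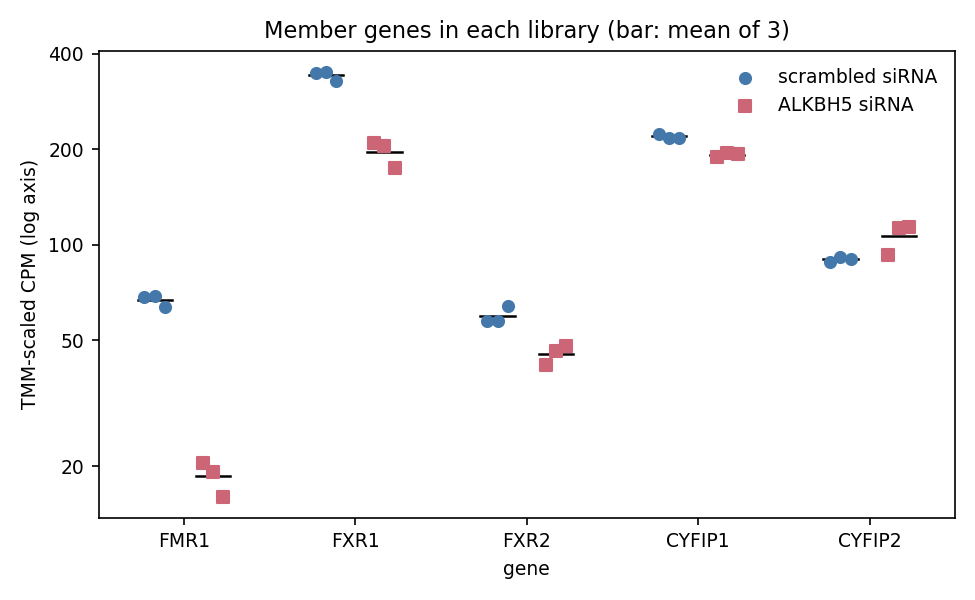
TMM-scaled CPM of the 5 member genes in each library on a log axis, with circles for scrambled siRNA, squares for ALKBH5 siRNA and a bar at the mean of 3. FMR1 lies at 63.4 to 69.0 CPM in scrambled and 16.0 to 20.5 CPM in knockdown libraries, whereas the groups of CYFIP1 and CYFIP2 lie close together.

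In the fit across all genes, 4 members were lower and 1 higher at an adjusted p below 0.05. The same holds for 61.6% of all tested genes (30.8% lower, 30.8% higher), and the members were chosen with these values known, so nothing is read from that count. Against a change of 1.5-fold, 2 members passed, FMR1 and FXR1, beside 24.8% of all tested genes. The large difference of FMR1 was known when the members were selected, so nothing is read from this count either. The CYFIP genes lay near the first threshold: CYFIP1 missed it without scrambled replicate 1 or 2 or knockdown replicate 1. CYFIP2 missed it without any 1 library other than knockdown replicate 1, and when libraries were scaled by their totals alone.

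The ratios within each family restate the differences above, including that of FMR1 known at selection, and are given as a description. The ratio of FMR1 to FXR1 CPM was 0.197, 0.197 and 0.194 with scrambled siRNA and 0.0980, 0.0940 and 0.0918 with ALKBH5 siRNA. Within each group this ratio varied little, so the 2 genes were high and low in the same libraries. The ratio of FMR1 to FXR2 was 1.13 ± 0.12 against 0.415 ± 0.079 (SD, n = 3). CYFIP1 over CYFIP2 was 2.53, 2.38 and 2.41 with scrambled siRNA and 2.03, 1.71 and 1.70 with ALKBH5 siRNA. The lack of overlap follows from the CPM of the 2 genes, which differed in opposite directions. Summed over FMR1, FXR1 and FXR2 without regard to length, the level was 468 ± 12.0 CPM against 260 ± 18.5 CPM. FXR1 alone averaged 342 and 196 CPM, so this sum mostly follows FXR1.

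Levels can be compared between genes only per length. Divided by the length of the GENCODE 29 coding transcript with the longest reading frame, the scrambled level was 39.2 ± 1.46 CPM per kilobase for FXR1, 32.3 ± 0.52 for CYFIP1, 21.4 ± 0.40 for CYFIP2, 20.2 ± 1.31 for FXR2 and 15.5 ± 0.72 for FMR1 (SD, n = 3). The ranges of CYFIP2 and FXR2 overlapped, and the other neighbours in this order did not. In the knockdown libraries the order was CYFIP1 (28.3 ± 0.46), CYFIP2 (25.3 ± 2.84), FXR1 (22.5 ± 2.16), FXR2 (15.3 ± 1.07) and FMR1 (4.31 ± 0.54). FMR1 was thus last in both groups by transcript length. With coding length in place of transcript length, FMR1 ranked 3 of 5 in the scrambled libraries, at 35.3 ± 1.63 CPM per kilobase, above FXR2 (29.5 ± 1.92) and CYFIP2 (23.5 ± 0.44), and last in the knockdown libraries, at 9.80 ± 1.22. FXR1 led the scrambled libraries by either length, but its transcript of 8711 bases holds only 1863 coding bases, so its lead depends most on that choice. FMR1 made up 20.7% ± 0.72 of the 3 fragile X genes' level per transcript length with scrambled siRNA and 10.2% ± 0.90 with ALKBH5 siRNA. The share of FXR2 was 26.9% ± 2.07 and 36.4% ± 3.86, and that of FXR1 52.3% ± 1.35 and 53.4% ± 2.97. A lower share of FMR1 raises the summed share of the others, and FXR1 and FXR2 were themselves lower in CPM after knockdown. By coding length the shares were 14.2% ± 0.29 and 7.11% ± 0.40 for FMR1, 11.9% ± 1.10 and 16.4% ± 2.26 for FXR2, and 73.9% ± 0.82 and 76.5% ± 1.87 for FXR1.

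**Figure D2:**
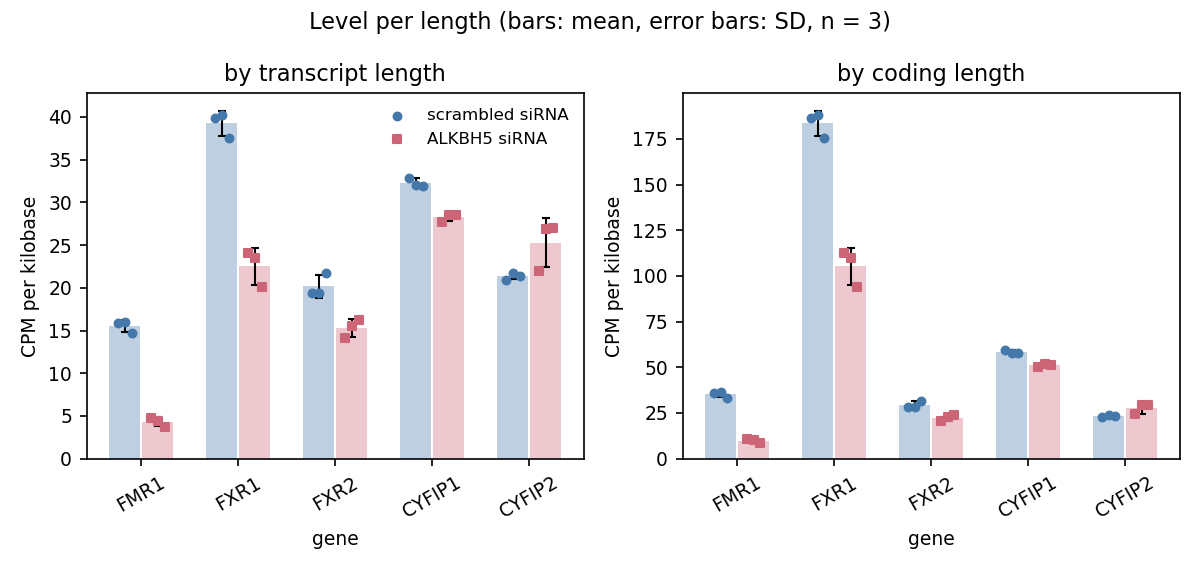
CPM per kilobase of the members, by transcript length on the left and coding length on the right, with bars for the mean, error bars for the SD of 3 libraries and points for single libraries (blue, scrambled; red, ALKBH5 siRNA). FMR1 is lowest in the knockdown libraries in either panel, while the order of FMR1, FXR2 and CYFIP2 in the scrambled libraries depends on the length used.

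Genes of the WAVE and Arp2/3 complexes, the actin machinery to which the CYFIP proteins belong, were mostly higher. Of 20 listed genes 19 were tested, and 13 rose, 2 fell and 4 did not pass. Over all tested genes 30.8% rose and 30.8% fell. The list's median log2 fold change was 0.39, against 0.01 for all tested genes. NCKAP1L, the blood-cell form of NCKAP1, was near 0 in both groups and was not tested. Among WAVE subunits, NCKAP1, the direct partner of CYFIP proteins in the complex, rose from 404 ± 18.1 to 588 ± 32.6 CPM (log2 change 0.54, adjusted p = 5.4e-05). The scaffold ABI1 rose from 87.8 ± 3.14 to 163 ± 5.67 CPM (0.89, adjusted p = 8.5e-07) and the small subunit BRK1 from 181 ± 8.52 to 233 ± 21.3 CPM (0.37, adjusted p = 0.0022).

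The WASF genes, which encode the WAVE proteins that contact Arp2/3, went opposite ways. WASF2, the most abundant by reads, fell from 205 ± 15.0 to 102 ± 2.71 CPM (log2 change −1.01, SE 0.08, adjusted p = 5.2e-07). WASF3 rose from 20.2 ± 0.47 to 60.5 ± 0.50 CPM (1.58, SE 0.09, adjusted p = 3.9e-08) and WASF1 from 24.0 ± 2.54 to 31.2 ± 2.52 CPM (0.38, adjusted p = 0.011). RAC1, which activates the complex, rose from 366 ± 10.9 to 577 ± 50.7 CPM. In the Arp2/3 complex, ACTR3 (Arp3) rose from 221 ± 10.5 to 698 ± 80.3 CPM (3.16-fold, log2 change 1.66, adjusted p = 3.4e-08), ARPC1A by 1.33 and ARPC5 by 1.30 on the log2 scale. ARPC4 was the Arp2/3 subunit that fell, from 72.4 ± 3.21 to 53.6 ± 2.94 CPM (log2 change −0.43, adjusted p = 0.00082).

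Genes of proteins that bind FMRP or share its granules went both ways or did not pass. Of 23 tested, 3 rose, 7 fell and 13 did not pass, so 43.5% were called, beside 61.6% of all tested genes, with a median log2 fold change of −0.02. KIF3C, a kinesin known to carry FMRP granules, fell from 121 ± 10.6 to 29.7 ± 1.77 CPM (log2 change −2.03, SE 0.10, adjusted p = 1.2e-08), a difference of similar size to that of FMR1. TOP3B, a topoisomerase that acts on RNA, and TDRD3, its adaptor, form a complex that joins FMRP, and both fell: TOP3B from 55.7 ± 2.45 to 29.4 ± 2.00 CPM and TDRD3 from 11.1 ± 0.40 to 7.39 ± 0.78 CPM (log2 fold changes −0.92 and −0.59, adjusted p = 4.5e-06 and 0.0029). CAPRIN1, a stress granule protein, fell from 458 ± 22.0 to 313 ± 5.76 CPM (−0.55, adjusted p = 3.1e-05).

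NUFIP2, which binds FMRP on polyribosomes, rose from 139 ± 3.37 to 231 ± 13.0 CPM (log2 change 0.73, adjusted p = 4.1e-06). ATXN2 and USP10, both stress granule proteins, rose by 0.47 and 0.33 on the log2 scale. G3BP1, the granule scaffold that pairs with CAPRIN1 and USP10, stood at 290 ± 10.9 and 275 ± 18.5 CPM and did not pass (adjusted p = 0.42). EIF4E, the cap-binding protein that CYFIP1 holds, stood at 16.8 ± 1.71 and 16.6 ± 1.44 CPM (log2 change −0.01, SE 0.12, adjusted p = 0.93).

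Messages known from brain as bound by FMRP went both ways. Of 32 listed, 31 were tested, and 8 rose, 12 fell and 11 did not pass. With libraries scaled by their totals alone, 5 rose and 12 fell. With TMM scaling 64.5% were called, beside 61.6% of all tested genes, with a median log2 fold change of 0.03. ARC, a regulator of synaptic receptors, rose from 20.2 ± 1.82 to 88.7 ± 9.83 CPM (4.39-fold, log2 change 2.13, adjusted p = 2.4e-08), and the synaptic scaffold SHANK1 from 18.1 ± 1.85 to 44.2 ± 14.9 CPM (1.29, adjusted p = 0.0014). NF1, which restrains RAS, the growth kinase MTOR and the amyloid precursor gene APP rose by 0.43, 0.37 and 0.35 on the log2 scale, APP from 1187 ± 13.8 to 1515 ± 78.0 CPM.

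MAP2 and MAP1A, which encode microtubule-associated proteins of neurons, were among those that fell. MAP2 went from 27.6 ± 6.91 to 3.10 ± 1.12 CPM (log2 change −3.16, adjusted p = 4.6e-06) and MAP1A from 59.3 ± 6.92 to 29.9 ± 5.57 CPM (−0.99, adjusted p = 7.2e-05). PCLO, a presynaptic scaffold, fell from 430 ± 18.1 to 222 ± 41.4 CPM (−0.96, adjusted p = 2.9e-05). MAP1B, the best-studied target, stood at 394 ± 61.9 and 298 ± 44.8 CPM (−0.40, adjusted p = 0.020), with groups that overlapped. It missed the threshold without scrambled replicate 2 (adjusted p = 0.068), knockdown replicate 1 (0.066) or knockdown replicate 3 (0.065). AGAP2 had a log2 fold change of −0.87 (adjusted p = 0.031), a call that ended without scrambled replicate 1 (0.080), knockdown replicate 2 (0.079) or knockdown replicate 3 (0.081).

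**Figure D3:**
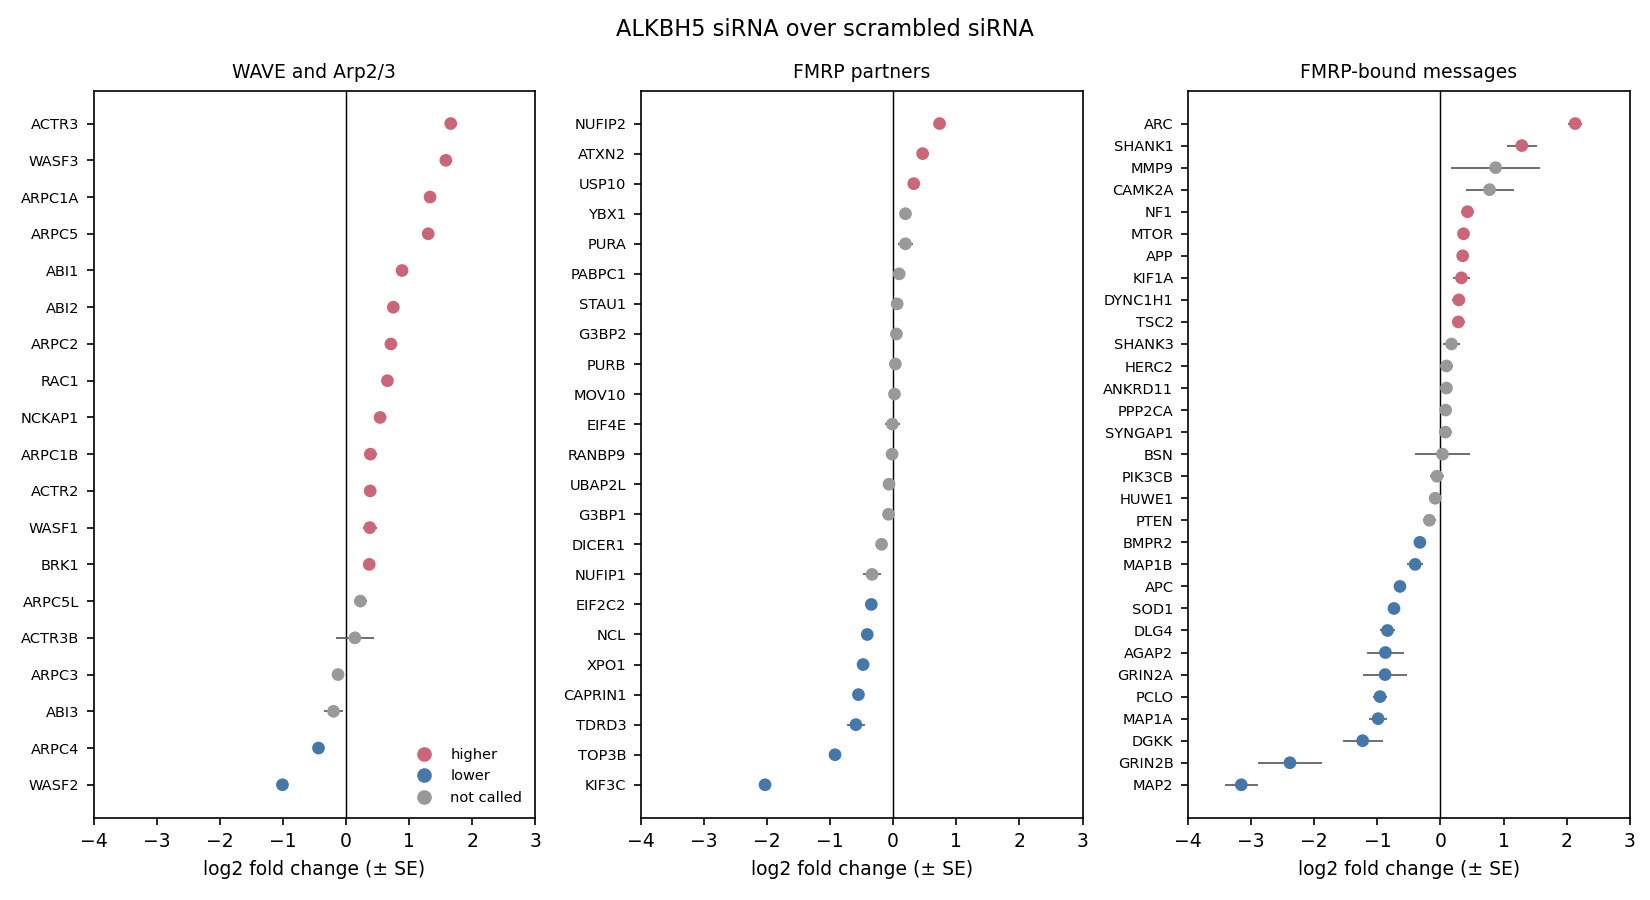
Log2 fold change with its SE for each tested gene of the WAVE and Arp2/3, FMRP partner and FMRP-bound message lists, ordered by size (red, higher; blue, lower; grey, not called). The first list lies mostly to the right of 0, with WASF2 at −1.01 the lowest, whereas the other lists spread to both sides.

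The members lie on 5 chromosomes (X, 3, 17, 15 and 5), and the 2 nearest tested genes on each side of every member were read beside them. Of these 20 neighbours, 7 rose, 6 fell and 7 did not pass, so 65.0% were called, beside 61.6% of all tested genes. Their median log2 fold change was −0.12. Genes that were not tested were passed over, so some of these neighbours lie far from their member. Gene order came from RefSeq on GRCh38.p14, whereas the counts were made on hg19.

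None of the 4 tested neighbours of FMR1 fell. Counted in RefSeq genes, UBE2NL, SLITRK2, AFF2 and IDS lie at −47, −39, 6 and 10 from FMR1. UBE2NL ends at base 143885255 of the X chromosome and IDS starts at 149476988, with the start of FMR1 at 147911919. They are therefore not a close comparison at the FMR1 locus. IDS, a lysosomal sulfatase, rose from 140 ± 6.62 to 241 ± 8.87 CPM (log2 change 0.78, adjusted p = 2.5e-06), and UBE2NL was higher by 0.49 (adjusted p = 0.045). The call of UBE2NL ended in 5 of the 6 fits that left out a library, with adjusted p up to 0.19, and with DESeq2 (0.092), library totals (0.077) or no filter on low counts (0.061). AFF2, the gene of the FRAXE fragile site, had a log2 fold change of −0.24 (SE 0.31, adjusted p = 0.53) and SLITRK2 of −0.07 (SE 0.27, adjusted p = 0.84). The adjacent antisense transcript FMR1-AS1 had at most 2 reads per scrambled library and 1 per knockdown library, too few to test.

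Among the neighbours of FXR2, 2 of 4 fell. MPDU1, needed for protein glycosylation, fell from 47.2 ± 4.56 to 21.4 ± 2.04 CPM and SAT2, an acetyltransferase gene, from 45.0 ± 2.56 to 21.8 ± 2.78 CPM (log2 fold changes −1.14 and −1.04, adjusted p = 3.1e-06 and 6.8e-06). FXR2 itself stood at −0.40, and whether it differs from them was not tested. CD68 and ATP1B2 did not pass at −0.17 and −0.42, though ATP1B2 passed without knockdown replicate 1 (adjusted p = 0.017). SHBG overlaps the start of FXR2 in RefSeq and had at most 8 reads per library. Near FXR1, TTC14 rose by 0.68 (adjusted p = 3.0e-05), USP13 fell by 0.53 (adjusted p = 0.0029), and DNAJC19 and SOX2OT did not pass at −0.08 and −0.23.

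CYFIP1 lies between NIPA2 and TUBGCP5 in the interval of chromosome 15 that is lost or gained as a block in some patients. On one side the magnesium transporter genes rose, NIPA1 from 30.3 ± 1.49 to 85.7 ± 11.1 CPM (2.83-fold, adjusted p = 2.3e-07) and NIPA2 from 103 ± 2.47 to 134 ± 13.9 CPM (log2 change 0.38, adjusted p = 0.0021). On the other side TUBGCP5, a subunit of the gamma-tubulin ring complex, fell from 36.9 ± 2.44 to 29.0 ± 1.78 CPM (−0.35, adjusted p = 0.0091), and MKRN3 did not differ detectably (log2 fold change −0.0035, SE 0.13, adjusted p = 0.98). The 4 genes NIPA1, NIPA2, CYFIP1 and TUBGCP5 of this interval therefore did not share a direction. MKRN3 lies further off, at 26 from CYFIP1 counted in RefSeq genes, and is not one of these 4. CYFIP1 and NIPA2 overlap at their ends in RefSeq, and reads there cannot be assigned without the strand setting.

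CYFIP2 has neighbours with wide differences of either sign. NIPAL4, another magnesium transporter gene, rose from 9.86 ± 1.30 to 73.4 ± 17.4 CPM (7.45-fold, log2 change 2.90, adjusted p = 3.1e-07) and the protease gene ADAM19 from 457 ± 24.0 to 560 ± 67.2 CPM (0.29, adjusted p = 0.014). MED7, a Mediator subunit, fell from 21.1 ± 1.02 to 10.3 ± 1.13 CPM (−1.03, adjusted p = 1.6e-05). The call of ADAM19 ended without scrambled replicate 2 or 3 or knockdown replicate 3 (0.054, 0.064 and 0.061).

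**Figure D4:**
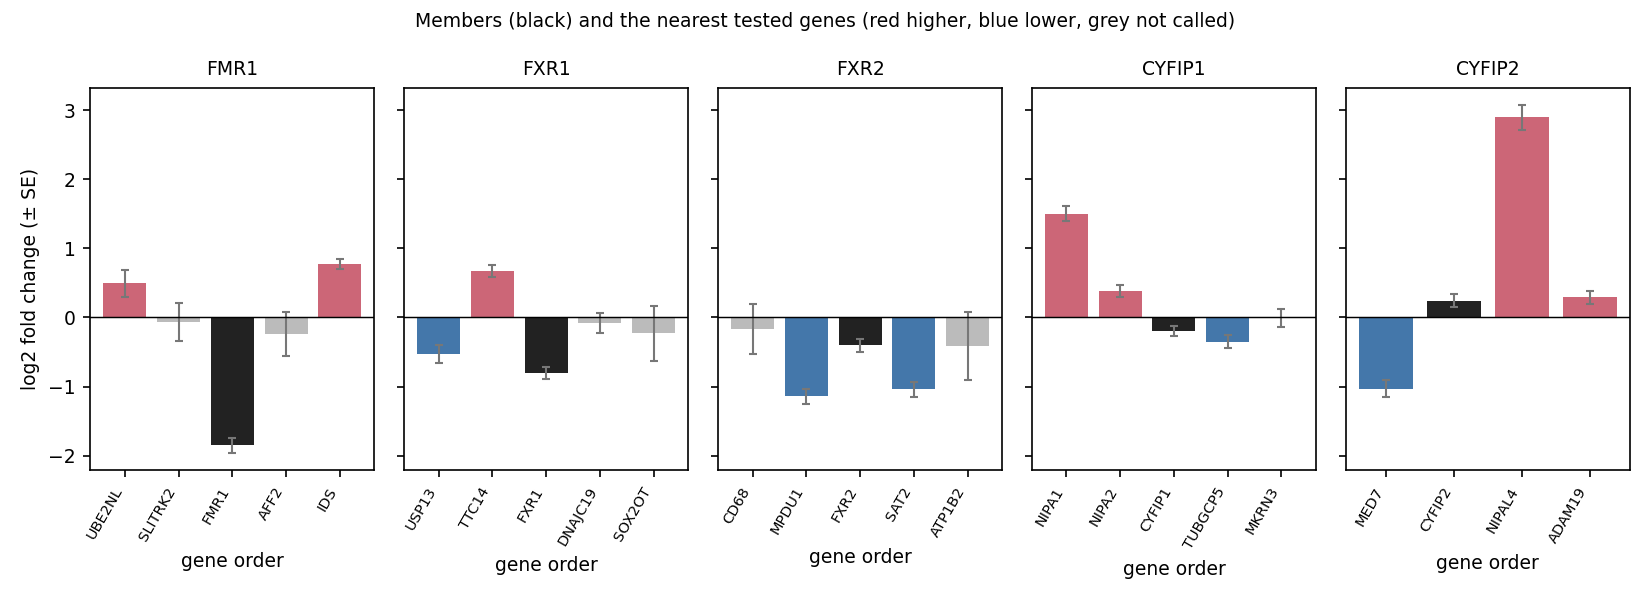
Log2 fold change with its SE for each member (black) between those of its 2 nearest tested genes on either side that averaged at least 1 CPM, in gene order (red, higher; blue, lower; grey, not called). FMR1 at −1.85 has no lower neighbour that passed, and CYFIP1 stands between NIPA2 at 0.38 and TUBGCP5 at −0.35. The neighbours of FMR1 lie at −47, −39, 6 and 10 from it, counted in RefSeq genes.

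The genes whose pattern over the 6 libraries was most like that of FMR1 were PCDHGB1, NFYA, SUOX, ZMAT2 and ENOX2. They had the smallest root mean square difference from FMR1 in log2 CPM centred on each gene's scrambled mean, between 0.053 and 0.074, among 11788 genes with a mean of at least 4 CPM. NFYA, a subunit of the CCAAT-binding factor NF-Y, went from 148 ± 8.37 to 42.9 ± 5.13 CPM, SUOX, the mitochondrial sulfite oxidase, from 43.1 ± 0.62 to 11.8 ± 0.77 CPM, and ZMAT2, a zinc finger protein of the spliceosome, from 84.4 ± 1.62 to 23.1 ± 2.16 CPM. ENOX2 and the protocadherin PCDHGB1 were less abundant by reads, at 13.4 ± 0.57 and 9.12 ± 0.65 CPM in the scrambled libraries and 3.53 ± 0.27 and 2.44 ± 0.29 CPM in the knockdown libraries. Counts of PCDHGB1 are uncertain because the gamma protocadherins share their last exons. By the same measure FXR1 ranked 1265th (difference 0.74), FXR2 3071st, CYFIP1 4369th and CYFIP2 7745th, so the relatives of FMR1 were not among the genes nearest to it. The order mainly reflects the size of the group difference, since all of these profiles change between the same 6 libraries.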

How the data were processed

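Polyadenylated RNA of 6 U2OS libraries was sequenced as single reads of 50 bases with a stranded kit, per the labels' protocols. The authors deposited raw read counts per gene symbol. Per the submitters' processing notes, CASAVA 1.8.2, TopHat2, SAMtools and HTSeq were used with hg19, with settings, strand included, that the sources used here do not give. The table of the whole series equalled the single files in all 23233 lines. HTSeq's summary entries were left out of totals and tests. Separate cultures are not stated for the replicates, so p-values reflect the spread of these libraries alone, which may be technical. Chi-square per degree of freedom between libraries of a group was 6.21 to 17.2, beyond sampling noise.

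The test was edgeR 4.0.16 in R 4.3.3 (filterByExpr, TMM scaling, robust glmQLFit, 2-sided glmQLFTest with group as the single term). Benjamini-Hochberg adjustment was made over 14504 genes with a threshold of 0.05. The script was tested on simulated counts with far fewer changed genes than were called here, so that check does not cover a change this broad. Fold changes set ALKBH5 siRNA over scrambled siRNA, and CPM are TMM-scaled. Lengths came from GENCODE 29, gene order and promoters from RefSeq. Alternatives were RLE scaling, library totals, no filter, a filter of 1 CPM in 3 libraries, limma-voom (limma 3.58.1), DESeq2 1.42.0, no robust moderation, glmTreat against 1.5-fold, a replicate block, and leaving out each library.

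The members and lists were chosen with earlier results of these data known. Named genes were ALKBH5, the members, 12 genes set by name, all neighbours, the 5 genes most like FMR1, and in each list up to 4 higher and 4 lower called genes with the largest fold change, at least 4 CPM on average and groups that did not overlap. WASF1, RAC1, FMR1-AS1, SHBG and the marker genes were added outside this rule, after their values were seen. One gene under this rule is not reported here. Replicate numbers in the titles were not taken to pair the samples.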

Additional observations from a re-analysis of the deposited data

How the results depend on the processing

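Over scalings, filters, tools and the replicate block, the log2 fold change lay between −1.91 and −1.85 for FMR1, −0.87 and −0.80 for FXR1, −0.47 and −0.40 for FXR2, −0.26 and −0.19 for CYFIP1, and 0.18 and 0.24 for CYFIP2. The lowest of these for each came from library totals without a scaling factor, which moved CYFIP1 to −0.26, further than the spread between its replicates. That setting shifted the median of all genes by −0.065. With 61.6% of tested genes called, the centre set by scaling is uncertain for differences as small as those of the CYFIP genes. A shift shared by all genes was not tested. With single libraries left out the values were −1.92 to −1.75, −0.85 to −0.72, −0.44 to −0.34, −0.21 to −0.18 and 0.20 to 0.34, in the same order. Testing against 1.5-fold, which asks for a larger change, cut the called genes from 8937 to 3601 in all, from 15 to 7 in the WAVE and Arp2/3 list, from 10 to 3 among FMRP partners, from 20 to 8 among FMRP-bound messages and from 13 to 6 among neighbours. Leaving out single libraries gave 7878 to 8694 in all and 14 to 16, 10 to 11, 15 to 19 and 10 to 12 in these lists. By coding length the levels per kilobase in the scrambled libraries were 183 for FXR1, 58.4 for CYFIP1, 35.3 for FMR1, 29.5 for FXR2 and 23.5 for CYFIP2. Of 54 genes under the naming rule other than the members, 6 changed side of the threshold under an alternative other than the 1.5-fold test. Among the same genes and alternatives 0 changed direction with a call. The 1.5-fold test, which cut the list counts as given above, was not counted gene by gene for them. With the replicate number as a block 9760 genes were called, and the adjusted p was 0.00011 for MAP1B and 1.2e-05 for AGAP2. Deviations of same-numbered libraries correlated at 0.33, 0.058 and 0.35, and those of differently numbered libraries at −0.37 to 0.077. Replicates 1 and 3 thus correlated best within their number. Scrambled replicate 2 correlated slightly better with knockdown replicate 1 (0.077) than with knockdown replicate 2 (0.058). These values do not settle whether the numbers mark shared handling, and the main test did not pair the samples. Depth limits FMR1-AS1 and the neighbours below 5 CPM.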
